A study of Mus musculus with 5 samples.

Results

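Amino acid transporter genes were taken as all genes whose symbol in the probe annotation of the array begins with *Slc1a*, *Slc3a*, *Slc6a*, *Slc7a*, *Slc36a*, *Slc38a* or *Slc43a*. The rule found 58 of the 19057 genes tested, and each was read from its brightest probe over all 5 arrays. Of these, 57 encode transporters or their subunits, and *Slc7a6os* is a gene on the strand opposite *Slc7a6* that carries the family name only. Lenses were taken on the day of birth (P0), and their RNA was profiled on Illumina MouseWG-6 v2.0 arrays, which read each transcript as the fluorescence of bead-bound probes. Values are background-corrected and normalized intensities, and each array held RNA of 2 lenses.

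The 3 mutant arrays came from *Celf1*cKO/lacZKI; *Pax6GFPCre* mice, in which the gene of the RNA-binding protein Celf1 is deleted in the lens. In these mice a floxed *Celf1* allele is cut by a Cre that the *Pax6GFPCre* transgene expresses from the lens placode onward, and the other allele is a germline *lacZ* knock-in, lost in every tissue. The 2 control arrays are labelled wild-type, on a mixed background of C57BL/6J and FVB. The study also describes its controls in general as floxed mice without Cre or Cre mice with intact *Celf1*, and the sources used here do not settle whether these 2 arrays held such lenses. The strain background of the mutants is not given in those sources.

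Amino acid transporters carry amino acids and related small molecules across membranes, some by using the sodium gradient and others by exchanging one amino acid for another. The lens has no blood supply of its own once mature, so its cells take amino acids from the surrounding fluids, for crystallin synthesis and, as cysteine, glutamate and glycine, for glutathione. Some of these genes, among them *Slc7a11* and *Slc38a2*, are known to be induced in cells starved of amino acids, through the transcription factor ATF4, which binds with C/EBP partners to a composite site.

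That site is shown first, because promoter sequence that members share is independent of the arrays. RefSeq promoter windows of build GRCm38.p6, from 250 bases before to 50 after a start, were found for 42 of the member genes, in 63 windows. The core TGATGNAA, read on both strands, was in 5 of these 63 windows (7.94%) and in 1304 of all 32851 windows (3.97%). It lay in windows of 4 member genes, *Slc1a4*, *Slc7a11*, *Slc7a7*, which has 2 overlapping windows, and *Slc6a21*. The stretches below run 5′ to 3′ on the gene's strand, with the core in capitals and 10 bases on either side.

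Slc1a4, chr11:20332700-20332727, minus strand: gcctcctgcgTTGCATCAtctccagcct

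Slc7a11, chr3:50443643-50443689, minus strand: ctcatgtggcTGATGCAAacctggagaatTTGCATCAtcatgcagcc

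Slc7a7, chr14:54418068-54418095, minus strand: cgcttgggctTGATGAAAggttcactgg

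Slc6a21, chr7:45282835-45282862, plus strand: gaggtgagaaTTACATCAagtgggcctc

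The core of *Slc1a4* began 4 bases before the annotated start and was read on the opposite strand. *Slc7a11* carried it in both orientations, 66 and 47 bases before the start, and *Slc7a7* had it 141 bases before the start, with a further match 1 base before it. The core of the antioxidant response element, TGACNNNGC, was in 10 of the 63 windows (15.9%) and in 12.4% of all windows, and *Slc38a2* held it 27 bases before its start.

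Slc38a2, chr15:96699737-96699765, minus strand: ccccgcccacTGACGCGGCgccccgccgc

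Neither core was in the windows of *Slc6a17*, and *Slc6a15* was not among the 42 genes with a window, so it was not searched. A match is only a match of letters. Of the 4 genes with the composite site core, *Slc1a4* rose in the mutant, and *Slc7a11*, *Slc7a7* and *Slc6a21* did not pass the test. *Atf4* itself read 2277.1, 2235.4 and 1140.2 in the mutants and 1654.2 and 1746.6 in the controls. The groups overlapped, and it did not pass the test (log2 fold change 0.08). The part of ATF4 in the levels of the members was not tested.

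In mutant against control lenses, 4 of 58 members passed the test (limma, Benjamini-Hochberg adjusted p under 0.05 over all genes), beside 5.81% of all genes tested. *Slc1a4* and *Slc6a17* rose, beside 3.15% of all genes, and *Slc6a15* and *Slc38a2* fell, beside 2.66% of all genes. At an unadjusted p under 0.05, 7 members were higher and 4 lower, beside 9.05% and 8.77% of all genes. The median log2 fold change of the 58 members was -0.046, against -0.0026 over all genes, and 26 members were positive and 32 negative. In 12 members all mutant arrays lay above both controls and in 10 they lay below, where the same held for 16.4% and 17.3% of all genes. Fewer cells of a type and less RNA per cell cannot be told apart in these whole lenses.

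All 4 called members were among the 15 that read over 25 on every array. Of all genes that bright, 14.1% were called, 7.95% higher and 6.14% lower, and of the 15 members 2 were higher and 2 lower. In contrast, 32 members had no array over 25, where the median intensity of all genes tested was 11.2. For these 32 the arrays give little room to see a fall. Without control A 1 member passed the test and without control B 0, where 224 of all genes still did. With values under 16 set to 16 and no constant added before the log2 step, none of the 4 calls remained, and 28 genes were called in all.

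**Figure D1:**
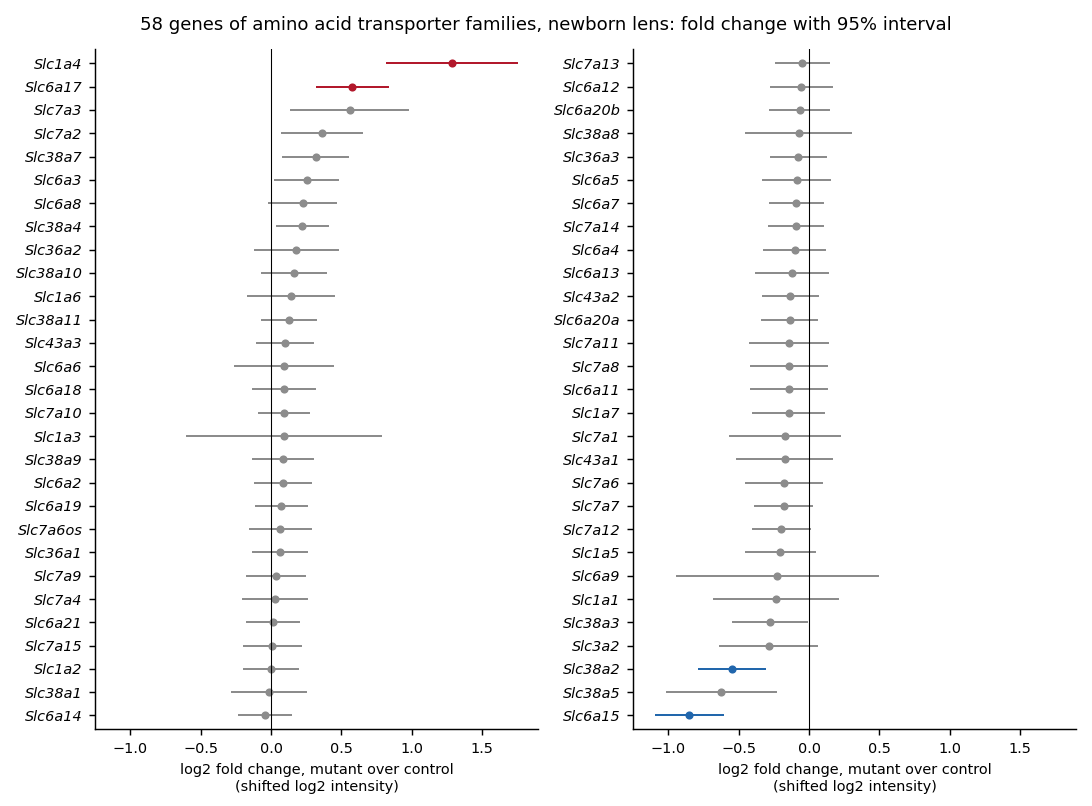
Log2 fold change of mutant over control (horizontal axis, shifted log2 intensity) for the 58 genes, each with its 95% interval. Red marks the members that rose, *Slc1a4* and *Slc6a17*, blue those that fell, *Slc6a15* and *Slc38a2*, and grey the 54 that did not pass the test.

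The plot of fold changes for the 58 genes shows most intervals lying across 0. The intervals of *Slc1a3* and *Slc6a9* are the widest of them, and these genes are described with the pigment markers further on. The interval of *Slc1a2*, a glutamate carrier, ran from -0.19 to 0.19 and is an example of how narrow a dim gene's interval is on this scale.

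Of 4 *Celf1* probes, 3 fell in the mutant. The brightest *Celf1* probe read 167.4, 172.7 and 154.2 in mutants A, B and C and 515.7 and 460.7 in controls A and B. Its log2 fold change was -1.38 (SE 0.09, adjusted p 0.000606), while 2 further probes designed to that RefSeq entry had -1.44 and -2.14. The remaining *Celf1* probe, designed to another entry, read 282.6, 323.6 and 226.9 against 200.6 and 178.2, above both controls in every mutant (log2 fold change 0.47, adjusted p 0.121). Lens markers summed to between 139513 and 179786 on all 5 arrays, whereas 8 retina markers summed to at most 64.8 and 7 leukocyte markers to at most 110.4. Mutants A and B lacked the female-specific transcript *Xist* (-0.3 and -0.9) and carried the Y-linked *Eif2s3y* (206.9 and 177.3). Mutant C and both controls showed the opposite pattern, with *Xist* at 263.5, 432.4 and 440.6 and *Eif2s3y* at 4.4, 2.5 and 1.1. Fold changes are therefore also given for mutant C against the 2 controls, arrays of a like pattern. They rest on 1 mutant array, with no spread of its own, and are given as values with no test.

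The exchangers for small neutral amino acids held the largest rise among the members. *Slc1a4* encodes ASCT1, which exchanges alanine, serine, threonine and cysteine with the help of sodium. Its intensity was 332.7, 499.7 and 564.9 in the mutants and 182.0 and 150.4 in the controls. The lowest mutant array stood well above the higher control, so that the groups did not overlap. The mean was 466 ± 120 (SD, n = 3) against 166 ± 22.3 (SD, n = 2), and the log2 fold change was 1.28 (SE 0.20, 95% interval 0.82 to 1.75, limma adjusted p 0.0115), a 2.43-fold rise. In mutant C alone against the controls it was 1.57. The call was lost without control A (adjusted p 0.0582) and without control B (0.125), each of which leaves 1 control array that is assumed to vary like the mutants. *Slc1a4* has only this probe on the array, so no second probe bears on it.

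Its close relative *Slc1a5* encodes ASCT2, which also takes glutamine. It read 1.0, 4.0 and 0.9 in the mutants and 3.6 and 12.4 in the controls, and its other 4 probes were as dim on every array. The log2 fold change was -0.20 (adjusted p 0.390), a value at background that says little of its level.

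The Slc6 family held a member that rose and a member that fell. *Slc6a15* encodes B0AT2, a sodium-driven carrier of branched-chain amino acids and proline that is best known from brain. It read 59.2, 53.2 and 42.3 in the mutants and 121.4 and 122.4 in the controls. The controls differed by 1 unit of intensity, and every mutant array lay below both. The mean was 51.6 ± 8.57 (SD, n = 3) against 122 ± 0.707 (SD, n = 2), and the log2 fold change was -0.85 (SE 0.10, 95% interval -1.09 to -0.62, limma adjusted p 0.00508), or 1.80-fold lower. In mutant C alone it was -1.01. The other 4 probes of *Slc6a15* read at most 18.4 on any array and did not pass the test, and with the mean of all 5 probes the log2 fold change was -0.18 (adjusted p 0.189). The adjusted p was 0.0563 without control B.

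*Slc6a17* encodes NTT4, a carrier that loads neutral amino acids into synaptic vesicles of neurons. It read 83.7, 64.6 and 60.8 in the mutants and 34.0 and 34.6 in the controls. All mutant arrays stood above the controls, with mutant A the highest. The mean was 69.7 ± 12.3 (SD, n = 3) against 34.3 ± 0.424 (SD, n = 2), and the log2 fold change was 0.58 (SE 0.11, 95% interval 0.33 to 0.83, limma adjusted p 0.0238). This was the least stable of the 4 calls, passing in 9 of 16 alternatives. It was lost without mutant B (adjusted p 0.0615), control A (0.0957) or control B (0.141). In mutant C alone the log2 fold change was 0.46, and a second probe was dim on all arrays.

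The other 7 measured amino acid carriers of the Slc6 family, among them the proline carrier *Slc6a7* and the kidney and gut carrier *Slc6a19*, did not pass the test. All of them read 15.1 or less on every array. The same family holds carriers of compounds that the lens is known to accumulate. *Slc6a6*, the taurine transporter, read 1419.1, 1086.8 and 1006.1 in the mutants and 1162.7 and 1006.9 in the controls. The groups overlapped, and the log2 fold change was 0.09 (95% interval -0.25 to 0.44, adjusted p 0.819). The creatine transporter *Slc6a8* read 43.5, 31.1 and 35.8 against 22.6 and 29.8, with all mutants above the controls but a log2 fold change of 0.22 that did not pass the test (adjusted p 0.318). *Slc6a12*, the betaine carrier, stayed at or under 7.6 on all arrays.

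**Figure D2:**
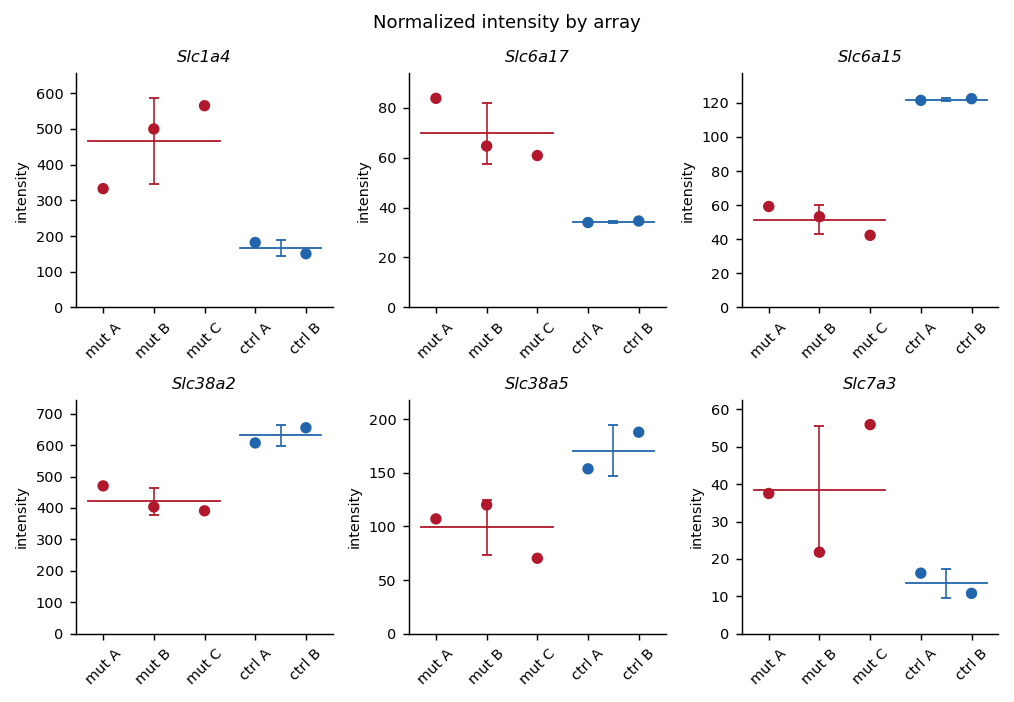
Normalized intensity (vertical axis) on each of the 5 arrays for the 4 called members and for *Slc38a5* and *Slc7a3*. Points are arrays, horizontal lines are group means and bars are SD. In all 6 panels the red mutant points do not overlap the blue control points, and the mutant points of *Slc7a3* spread from 21.8 to 55.9.

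The plot of intensity by array shows how closely the 2 controls matched for *Slc6a15* and *Slc6a17*, and how widely the mutants spread for *Slc1a4* and *Slc7a3*.

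The sodium-coupled neutral carriers of the Slc38 family held 1 call among 10 measured members. *Slc38a2* encodes SNAT2, the system A carrier of alanine and glutamine known to be induced on amino acid starvation. It read 470.2, 403.5 and 391.0 in the mutants and 606.8 and 655.0 in the controls. Both controls were above all mutants. The mean was 422 ± 42.6 (SD, n = 3) against 631 ± 34.1 (SD, n = 2), and the log2 fold change was -0.55 (SE 0.10, 95% interval -0.78 to -0.31, limma adjusted p 0.0227), or 1.46-fold lower. A second probe read 377.5, 293.9 and 186.0 against 457.4 and 484.4, again with no overlap, but did not pass over all probes (log2 fold change -0.70, adjusted p 0.170). In mutant C alone the log2 fold change was -0.64. The call was lost without mutant B (adjusted p 0.0879), control A (0.0689) or control B (0.153).

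The other system A members gave no call. *Slc38a1*, also known as SNAT1, read 33.2, 36.8 and 35.1 against 27.4 and 45.1, with mutants lying between the controls. *Slc38a4*, or SNAT4, read 21.2, 21.3 and 19.3 against 12.1 and 12.7, above both controls in every mutant (log2 fold change 0.22, unadjusted p 0.0206, adjusted p 0.165).

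The system N carriers *Slc38a5* and *Slc38a3* were lower in every mutant array than in either control, as 17.3% of all genes were, without passing the test. *Slc38a5*, or SNAT5, a carrier of glutamine, asparagine and histidine, read 107.0, 120.0 and 70.3 against 153.6 and 187.7. Mutant C was the lowest. The log2 fold change was -0.63 (SE 0.17, 95% interval -1.01 to -0.24, adjusted p 0.0816). *Slc38a3*, or SNAT3, read 89.8, 111.6 and 120.0 against 129.3 and 144.9 (log2 fold change -0.28, adjusted p 0.244). In the opposite direction, *Slc38a7*, a glutamine exporter of the lysosome, read 31.3, 34.5 and 44.8 against 22.7 and 21.6 (log2 fold change 0.32, unadjusted p 0.0137, adjusted p 0.131). *Slc38a9*, the lysosomal arginine sensor of mTORC1, overlapped between the groups, at 34.2, 26.6 and 26.8 against 23.3 and 27.5. *Slc38a10* overlapped too, at 44.9, 54.0 and 56.1 against 37.5 and 47.1, and *Slc38a11* was at most 11.4 on any array.

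*Slc38a5* is among 4 members on the X chromosome, with *Slc7a3*, *Slc6a8* and *Slc6a14*. In mutant C alone, which matched the controls in *Xist*, the log2 fold change was -0.95 for *Slc38a5* and 0.89 for *Slc7a3*, each from 1 mutant array and with no test. Without mutant C the log2 fold changes were -0.46 (adjusted p 0.0582) for *Slc38a5* and 0.40 (adjusted p 0.155) for *Slc7a3*. The difference between mutant C and the other mutants was not tested. *Slc6a14* was at background on all arrays, between -2.1 and 1.0.

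The heteromeric transporters pair a heavy chain, which carries the pair to the membrane, with a light chain that does the transport. Neither kind gave a call, and 0 of the 10 measured chains had an unadjusted p under 0.05 in limma on its brightest probe. The heavy chain *Slc3a2*, known as CD98, read 35.6, 23.6 and 15.6 in the mutants and 31.6 and 44.6 in the controls. Mutants B and C lay below both controls and mutant A between them, and the log2 fold change was -0.29 (95% interval -0.63 to 0.06, adjusted p 0.382). Its partner *Slc3a1* and the light chain *Slc7a5* have no named probe and were not analysed here.

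Of 9 measured light chains, 3 had a positive and 6 a negative fold change. *Slc7a8*, the LAT2 carrier of large neutral amino acids, read 628.4, 634.6 and 787.0 against 722.4 and 785.4. It was level within the spread of the arrays (log2 fold change -0.14, 95% interval -0.41 to 0.13, adjusted p 0.615), and a second probe overlapped between the groups as well. *Slc7a11*, the xCT chain that takes up cystine in exchange for glutamate and so feeds glutathione synthesis, read 90.6, 81.5 and 65.2 against 81.6 and 99.7. The groups overlapped, and the log2 fold change was -0.14 (95% interval -0.42 to 0.14, adjusted p 0.628). Its other 4 probes read at most 21.5 on any array.

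*Slc7a7*, the y+LAT1 chain that exports arginine and lysine, read 18.4, 20.8 and 23.7 against 31.8 and 25.6, with each mutant below the controls. It did not pass the test (log2 fold change -0.18, adjusted p 0.349). A second probe read 16.7, 17.4 and 20.6 against 29.7 and 31.3, also without overlap (log2 fold change -0.29, unadjusted p 0.00568, adjusted p 0.0931). Its sister chain *Slc7a6* read 52.1, 46.1 and 33.0 against 51.0 and 56.8, overlapping between the groups. *Slc7a6os*, the gene opposite it, also overlapped, at 15.2, 20.5 and 19.7 against 19.2 and 12.9. The remaining light chains, *Slc7a9*, *Slc7a10*, *Slc7a12*, *Slc7a13* and *Slc7a15*, read 12.7 or less on every array.

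The cationic transporters *Slc7a2* and *Slc7a3*, known as CAT2 and CAT3, bring arginine and lysine into cells. *Slc7a2* read 204.2, 244.9 and 276.8 in the mutants and 170.4 and 188.1 in the controls. All mutants were above both controls, but the log2 fold change of 0.36 (SE 0.12, 95% interval 0.08 to 0.64) missed the threshold (unadjusted p 0.0192, adjusted p 0.158). A second probe gave 29.7, 41.9 and 40.2 against 23.3 and 16.8 (log2 fold change 0.38, adjusted p 0.101).

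*Slc7a3* read 37.5, 21.8 and 55.9 against 16.2 and 10.8. The mutants spread widely above the controls, and the log2 fold change was 0.56 (SE 0.18, adjusted p 0.139). Without mutant B, the lowest of the 3, it was 0.73 (adjusted p 0.0447). *Slc7a1*, or CAT1, was dim on all arrays but control B (24.5), and *Slc7a4*, a relative with no settled substrate, was level at 223.1, 211.2 and 228.1 against 237.0 and 196.0 (log2 fold change 0.03). *Slc7a14* read 6.6 or less on every array.

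The proton-coupled Slc36 and the Slc43 families gave no call among 6 measured members, with 0 at an unadjusted p under 0.05 in limma. *Slc36a1*, *Slc36a2* and *Slc36a3* read 9.9 or less on every array. *Slc43a1*, a carrier of branched-chain amino acids also known as LAT3, read at most 16.6 in the mutants and 28.7 in control B. *Slc43a2* and *Slc43a3* read 14.9 or less.

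The neurotransmitter carriers of the Slc6 family gave no call either, with 1 of 7 at an unadjusted p under 0.05. *Slc6a3*, the dopamine transporter, read 14.4, 21.0 and 14.9 against 5.8 and 10.5, close to background, with a log2 fold change of 0.25 (unadjusted p 0.0303, adjusted p 0.212). *Slc6a9*, the glycine transporter GlyT1, split the arrays in another way, reading 122.7, 52.5 and 48.8 in the mutants and 60.0 and 124.4 in the controls. Its log2 fold change was -0.23 (95% interval -0.94 to 0.49, adjusted p 0.780). The other 5 measured carriers, of noradrenaline, serotonin, glycine and GABA, read at most 25.8 on any array.

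The glutamate carrier *Slc1a3*, or GLAST, followed that pattern, at 60.8, 32.5 and 24.6 in the mutants and 13.2 and 61.3 in the controls. Mutant A and control B were high in both genes, and so they were in *Slc38a8*, a carrier expressed in the retina, at 31.3, 16.4 and 23.4 against 17.0 and 37.8. The pigment cell marker *Dct* was high on the same arrays, at 47.3, 21.0 and 22.1 against 7.7 and 60.7. The 7 pigment markers summed to 126.2, 75.9 and 91.1 in the mutants and 56.9 and 168.8 in the controls, with 0 of 7 called by limma and 0 at an unadjusted p under 0.05, and *Tyr*, *Mlana* and *Rpe65* stayed at or under 11.8 on every array. *Dct*, *Pmel*, *Slc45a2* and *Tyrp1* were highest in control B, whereas *Tyr*, *Mlana* and *Rpe65* did not follow that order. The part of pigment cells in the levels of these 3 members was not tested. The other 4 glutamate carriers read at most 26.8 on any array.

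**Figure D3:**
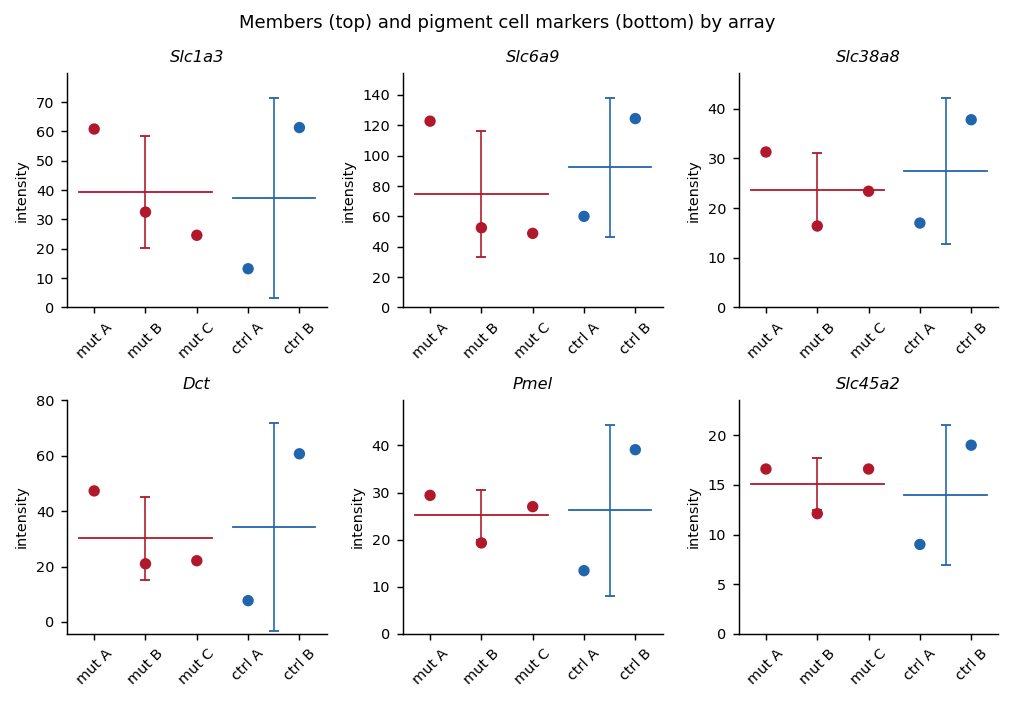
Normalized intensity (vertical axis) on each array for *Slc1a3*, *Slc6a9* and *Slc38a8* (top) and 3 of the 7 pigment cell markers, *Dct*, *Pmel* and *Slc45a2* (bottom), with group means and SD. Mutant A and control B are the highest arrays in the top row, at 60.8 and 61.3 for *Slc1a3*, and control B is the highest in each lower panel.

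The plot of members beside pigment markers shows the groups overlapping, with control B above control A in every panel. Mutant A stood apart from the other mutants in *Slc1a3*, *Slc6a9* and *Dct*. It did not in *Slc45a2*, at 16.6 in both mutant A and mutant C, or in *Pmel*, at 29.4 and 27.0. Control B was the highest of the 5 arrays in 27 of the 58 members and the lowest in 14, and mutant C in 13 and 12. The same shares over all genes were not counted. Control B also had the most probes at or below 0, 8205 against 3442 to 5993 on the other arrays. The mean intensity of *Slc1a3* was 39.3 ± 19.0 (SD, n = 3) in the mutants and 37.3 ± 34.0 (SD, n = 2) in the controls, so that a change would have had to be large to be seen.

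Hemoglobin and other red blood cell markers summed to 8305 in mutant A and to between 2574 and 3948 on the other arrays. By limma 0 of 4 were called, with 3 fold changes positive and 1 negative. The negative one, *Slc4a1*, was the 1 marker at an unadjusted p under 0.05. It read 24.8, 30.4 and 19.6 in the mutants and 39.2 and 62.1 in the controls (log2 fold change -0.50). Mutant A was the highest array in *Slc6a17* and the lowest mutant in *Slc1a4*. Without mutant A their log2 fold changes were 0.49 (limma adjusted p 0.0458) and 1.49 (0.00392). The part of blood cells in the levels of the members was not tested. Lens epithelium markers summed to 1899, 1345 and 1087 in the mutants and 1903 and 2588 in the controls, with 1 of 6 called, *Trpm3* (log2 fold change -0.52). *Gja1* made up most of that sum and did not pass the test (-0.71, adjusted p 0.248). *Cdh1* (-0.45, adjusted p 0.295) and the dim *Pax6* (-0.18, adjusted p 0.297) lay below both controls in every mutant but did not pass. *Foxe3* (0.04) and *Sox2* (0.01) overlapped between the groups, so that 4 of the 6 had a negative and 2 a positive fold change. Among the mutants, mutant A was highest and mutant C lowest in that sum as in *Slc6a15*, *Slc38a2* and *Slc6a17*, of which *Slc6a17* rose. Members that did not pass, such as *Slc3a2*, *Slc7a11* and *Slc6a6*, had this order too, and *Slc1a4* had the reverse. The part of epithelial cells in the levels of the members was not tested. Of 9 lens markers, the fiber cell genes *Lim2* (-0.51) and *Bfsp2* (-0.50) fell.

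Genes that handle amino acids outside these families were set beside the members. Of 20 measured transporters of other families, 1 rose and 0 fell by limma's adjusted p, with 3 higher and 4 lower at an unadjusted p under 0.05 and a median log2 fold change of -0.0552. The gene that rose was *Slc15a4*, which carries histidine and peptides out of the lysosome, at 100.5, 109.5 and 111.2 against 68.7 and 66.1 (log2 fold change 0.47, adjusted p 0.0178). The call was lost without mutant B (adjusted p 0.0806), control A (0.0602) or control B (0.105). *Slc15a2*, a peptide carrier of the cell surface, read 74.6, 96.1 and 44.6 against 131.6 and 134.0 and did not pass the test (-0.67, adjusted p 0.0929).

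Of 25 measured enzymes of amino acid synthesis and breakdown, 1 rose and 0 fell, with 2 higher and 5 lower at an unadjusted p under 0.05 and a median of -0.0057. *Psat1*, an enzyme of serine synthesis, read 1350, 1465 and 1457 in the mutants and 973.7 and 800.4 in the controls (log2 fold change 0.67, adjusted p 0.0118). *Phgdh*, which catalyses the step before it, read 168.6, 149.1 and 222.0 against 340.5 and 265.0. Its log2 fold change was -0.65 and did not pass the test (adjusted p 0.0595). These enzymes work in the same pathway, with *Psat1* higher and *Phgdh* lower in every mutant array than in either control. The call for *Psat1* was lost without control B (adjusted p 0.0751).

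Among 30 measured genes of amino acid sensing, which report amino acid supply to the growth kinase mTORC1 or to the kinase Gcn2, 1 rose and 4 fell, with a median of 0.0233. *Castor2*, a relative of the arginine sensor Castor1, read 75.3, 83.2 and 108.3 in the mutants and 31.3 and 41.2 in the controls (log2 fold change 0.78, adjusted p 0.0142). *Rragc*, a small GTPase that brings mTORC1 to the lysosome, read 765.1, 764.8 and 648.3 against 1315 and 1439 (-0.89, adjusted p 0.00473). The mTORC1 inhibitor *Tsc2* (-0.82, adjusted p 0.0218), the mTORC1 subunit *Rptor* (-0.44, adjusted p 0.0323) and the leucine sensor *Sesn1* (-0.93, adjusted p 0.00298) also fell. Genes that promote mTORC1 and genes that restrain it were thus both among the 4 that fell. *Rptor*, read from the brightest of 6 probes, passed in 7 of 16 alternatives, with log2 fold changes from -0.63 to -0.047. Without control B the calls for *Castor2* (adjusted p 0.0742), *Rragc* (0.0542), *Tsc2* (0.150) and *Rptor* (0.163) were lost. Without control A those for *Castor2* (0.0850) and *Tsc2* (0.101) were lost, and *Rptor* was also lost when any mutant was left out (0.0546 to 0.114).

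**Figure D4:**
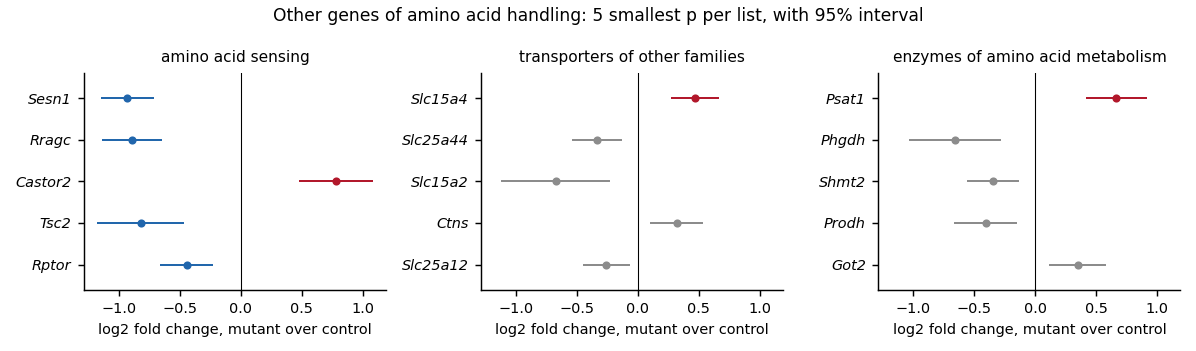
Log2 fold change of mutant over control (horizontal axis) with 95% interval for the 5 genes of smallest p in each of 3 lists of other genes that handle amino acids. Red marks genes that rose, blue those that fell and grey those that did not pass the test, and the blue genes are the 4 of amino acid sensing.

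The plot of the other amino acid genes shows the sensing list with 5 calls and the other lists with 1 each. Beside 5.81% of all genes tested (3.15% higher, 2.66% lower), 5 of 30 sensing genes, 1 of 25 enzymes and 1 of 20 other transporters were called. At an unadjusted p under 0.05 in limma, 9.05% of all genes were higher and 8.77% lower. In these lists 20 sensing genes, 13 enzymes and 7 other transporters read over 25 on every array. Of all genes that bright, 14.1% were called. Whether any list differs from the rest of the genes was not tested.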

How the data were processed

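RNA of 5 lens pools (3 mutant, 2 control) was hybridised to Illumina MouseWG-6 v2.0 BeadChips. The deposited values are probe intensities that the authors background-corrected with lumi and normalized by the Rank Invariant method, with versions not given in the sources used here. Of 45281 probes, 34885 name 1 gene, 18 several and 10378 none. The brightest probe of each of 19057 genes was tested. Because values fall to -20.5, 36.5 was added before log2, so fold changes are understated, most of all in dim genes. Fits used limma 3.58.1 (lmFit, eBayes, two-sided) in R 4.3.3, with Benjamini-Hochberg adjustment over all genes and 0.05 as threshold. No detection calls were used, and the number of arrays limits precision. Named genes were members past the adjusted or the unadjusted threshold, chosen lens carriers, up to 5 of smallest p per context list, and *Celf1*, *Xist* and *Eif2s3y*. Other members, such as *Slc1a3*, and *Atf4* were named after their values were seen. Members and lists were chosen with earlier results of these data known. In simulated data of 19057 genes the fit called 97 of 100 genes changed by 1 on the log2 scale and 11 of 18857 unchanged genes. Its noise was drawn from the spread that limma fitted, independently for each array, and changes were set only in genes above the median level. It held no *Xist* split and no odd array, so it checks the code and does not give the error rates of these arrays. For each result, 16 alternatives were tried. No reads, genome or transporter without a named probe (6 genes) was analysed here.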

Additional observations from a re-analysis of the deposited data

How the results depend on the processing

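The count of members that rose was 2. It was 1 with the lowest value set to 64, 1 with the mean of all probes and 0 with values floored at 16, and 0 to 2 when an array was left out. The count that fell was 2. It was 0 with the floor and 0 with the mean of all probes, and 0 to 2 when an array was left out. Over all genes 1107 were called, against 28 with the floor and 224 to 1171 when an array was left out (224 without control B). The enzymes, 1 call, had 0 with the floor, 2 with dim genes left out, 2 with an intensity trend and 2 with array weights. They had 2 with the probe of smallest p and 1 to 4 when a mutant array was left out. The sensing genes, 5 calls, had 0 with the floor, 3 with the mean of all probes and 1 to 8 when an array was left out. Other transporters, 1 call, had 2 with the lowest value at 64, 0 with the floor, 0 with the trend and 0 to 2 when an array was left out. Array letters occur in both groups, and the labels do not say whether they pair arrays, so the main fit did not pair them. For 2 pairs same-letter deviations from the group means correlated at 0.003 and 0.025. With 2 controls, whose deviations mirror each other, these values are not independent and cannot exclude a pairing. With the letter as a replicate block 1287 genes, 3 enzymes and 2 other transporters were called, and *Slc38a5* passed (log2 fold change -0.46, adjusted p 0.0340). Only a mutant has the letter C, so the fold changes of that fit equal those without mutant C. For the X-linked *Slc38a5* it set mutants A and B, which lacked *Xist*, against controls that carried it. Genotype and *Xist* pattern cannot be told apart in that fit.

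Among 31 named genes, 422 values kept direction and call, 48 lost the call, 17 gained it and 7 reversed. With each gene read from its probe of smallest p, the sign is that of another probe, for *Slc7a11* (0.20) and *Slc6a6* (-0.065) of a probe near background, and for *Slc25a12* (0.29), which was 0.017 with the mean of all probes. *Slc6a6* also reversed without mutant A (-0.048), without control B (-0.0056) and in mutant C alone (-0.10), and the cause was not tested. *Slc1a5* gave no value with the floor. Probes near background limit what can be seen of 32 members.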
